A study of Mus musculus with 15 samples.

Results

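RNA-seq counts are described here for 8 genes, *Aldh1a2*, *Slc15a1*, *Colq*, *Hmcn2*, *Sphkap*, *Spaca6*, *Ptprg* and *Rhox5*, out of 41388 genes counted and 13904 tested. They were chosen from the clone against parental comparisons of these same libraries, as genes at a low level in A20 cells that lost their transcript in several clones. Values from that comparison chose them, and are therefore given as a description with no test of the 8. A group was treated as at the detection floor where its 3 libraries together held 3 counts or fewer. A count is a read pair assigned to a gene.

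A20 cells are a mouse B-cell lymphoma line of the BALB/c strain. The parental line (genotype WT) was compared with clones E6.1 and E6.2, which carry a mutation in *Foxp1* exon 6, and with E7.1 and E7.2, mutated in exon 7, to find transcripts that differ when Foxp1 is disrupted. *Foxp1* encodes a forkhead transcription factor of B cells. Each line gave 3 libraries from separate passages, 15 in all. Values given in clone order run from E6.1 and E6.2 to E7.1 and then E7.2. Every clone was expanded from 1 sorted cell, whereas the parental line is a population, and no clone of unedited cells was analysed here, so *Foxp1* editing and descent from 1 cell cannot be told apart. In bulk RNA, fewer cells carrying a transcript and less transcript per cell cannot be told apart either.

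The libraries held 26328054 to 39181530 counts. *Foxp1* itself was at 102, 166 and 147 CPM (counts scaled to library size after TMM normalization) in parental cells, and its transcript remained in every clone. It was at 99.5 to 109 CPM in the E6 clones, and at 37.1 to 64.3 CPM in the E7 clones. By edgeR's quasi-likelihood test the log2 fold change was -1.29 in E7.1 with an adjusted p of 0.00688, and the value of -1.69 in E7.2 had an adjusted p of 0.00116. *Foxp1* did not pass the threshold in E6.1 (-0.41, adjusted p = 0.765) or E6.2 (-0.39, adjusted p = 0.417). The labelled cell type held in the data, with 8 of 8 B-cell markers above 1 CPM on average and a summed level of 3520 to 5670 CPM. Markers of T cells, myeloid cells and fibroblasts each summed to at most 0.674 CPM in any library, with *Cd3e* at 0 throughout, and those of muscle and neurons to at most 1.18 CPM, with *Myod1*, *Myog* and *Snap25* at 0. Epithelial markers reached 3.49 CPM and germ-cell markers 2.84 CPM, led by *Epcam* and *Ddx4*. The summed germ-cell markers, 4 genes with 1 above 1 CPM, were at 2.08 to 2.5 CPM in parental libraries, 1.38 to 1.77 in E6.1, 1.8 to 2.84 in E6.2, 0.964 to 1.48 in E7.1 and 1.2 to 1.57 in E7.2, and their part in the values of *Spaca6* and *Rhox5* was not tested. The third library of E6.2 and the third of E7.2 deviated from their lines' means in the same way across genes (r = 0.426, the highest of 90 pairs of libraries from different lines), and the calls and fitted values of E6.2 and E7.2 are also given without them.

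The 8 genes have unrelated roles, most of them outside B cells. Aldh1a2 is the retinaldehyde dehydrogenase that makes retinoic acid in the embryo and in some immune cells. Slc15a1 (PepT1) carries dipeptides and tripeptides across the gut epithelium. ColQ is the collagen tail that anchors acetylcholinesterase at the neuromuscular junction, and hemicentin-2 (Hmcn2) is a large extracellular matrix protein. Sphkap anchors protein kinase A, and Ptprg is a receptor-type tyrosine phosphatase. Spaca6 is a sperm membrane protein needed for fusion with the egg, and Rhox5 (Pem) is an X-linked homeobox factor of reproductive tissues that is also known from tumour cell lines. Genes with promoters rich in CpG dinucleotides and genes with few of them are known to be silenced in different ways, and *Rhox5* is known as a gene whose promoter is controlled by DNA methylation. Methylation was not measured in these libraries.

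The promoters of 5 of the 8 genes are shown because they span this range of CpG content. The sequences are from RefSeq on GRCm38.p6, each of 250 bases ending just before the annotated start and written 5′ to 3′ on the gene's strand, with every CpG in capitals. A20 cells come from BALB/c, and these are reference bases. *Aldh1a2* (chr9:71215539-71215788, plus strand) has 40 CpG and *Ptprg* (chr14:11553303-11553552, plus strand) has 31. *Slc15a1* (chr14:121505255-121505504, minus strand) has 7, *Sphkap* (chr1:83408201-83408450, minus strand) has 5 and *Rhox5* (chrX:37754358-37754607, plus strand) has 4.
Aldh1a2: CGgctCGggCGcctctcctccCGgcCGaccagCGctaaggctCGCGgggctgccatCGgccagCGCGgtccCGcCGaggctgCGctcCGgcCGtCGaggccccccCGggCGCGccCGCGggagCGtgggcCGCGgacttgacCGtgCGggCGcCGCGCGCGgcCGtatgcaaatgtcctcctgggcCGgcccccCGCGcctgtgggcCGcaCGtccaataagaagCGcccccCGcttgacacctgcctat
Ptprg: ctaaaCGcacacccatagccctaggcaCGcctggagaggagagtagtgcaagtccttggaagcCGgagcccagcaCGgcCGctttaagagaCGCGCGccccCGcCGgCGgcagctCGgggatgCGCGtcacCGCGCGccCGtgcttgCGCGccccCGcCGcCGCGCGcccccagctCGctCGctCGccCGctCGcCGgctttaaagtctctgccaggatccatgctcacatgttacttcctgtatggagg
Slc15a1: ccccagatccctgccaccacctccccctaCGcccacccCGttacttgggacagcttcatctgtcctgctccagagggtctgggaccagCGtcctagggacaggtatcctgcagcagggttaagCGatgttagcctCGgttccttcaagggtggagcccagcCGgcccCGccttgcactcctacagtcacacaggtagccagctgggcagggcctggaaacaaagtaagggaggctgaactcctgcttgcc
Sphkap: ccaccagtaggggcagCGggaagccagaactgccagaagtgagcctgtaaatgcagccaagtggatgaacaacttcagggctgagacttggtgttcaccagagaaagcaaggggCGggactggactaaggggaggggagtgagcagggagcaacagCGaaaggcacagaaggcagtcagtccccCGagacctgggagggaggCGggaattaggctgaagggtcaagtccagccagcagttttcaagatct
Rhox5: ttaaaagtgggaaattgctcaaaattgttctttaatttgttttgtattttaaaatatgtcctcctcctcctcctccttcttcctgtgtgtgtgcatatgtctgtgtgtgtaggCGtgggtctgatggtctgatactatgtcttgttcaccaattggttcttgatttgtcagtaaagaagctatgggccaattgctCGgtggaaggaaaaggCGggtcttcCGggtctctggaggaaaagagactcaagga

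The RefSeq promoter table held a window, 250 bases before to 50 bases after the start, for 7 of the 8 genes, and *Colq* had none in it. *Ptprg* had a second window at an internal start, so 8 windows were compared with all 32851. The ratio of observed to expected CpG over 300 bases was 1.11 for *Aldh1a2* and 1.03 for the first start of *Ptprg*, at percentiles 98.3 and 95.8 of all windows. For *Hmcn2* it was 0.696, for *Slc15a1* 0.411 and for *Rhox5* 0.363. The second start of *Ptprg* gave 0.324, *Sphkap* 0.282 and *Spaca6* 0.226. The median of all windows was 0.384 with quartiles of 0.176 and 0.75, so 2 of the 8 windows lay above the upper quartile and 0 below the lower one. The windows thus spread over much of the range of all windows, as the histogram of CpG content shows. The share above the upper quartile is the one that quartile holds among all windows, so nothing is read from it about the genes. The forkhead core motif TGTTTAC, searched on both strands, was in 0 of the 8 windows and in 3.65% of all windows. TATAAA was in 0 of the 8 and in 13.6% of all. The absence of these letters from a 300-base window is a description of that window only. The *Rhox5* window begins at a RefSeq start that lies 50234 bases before the gene model on which its reads were counted.

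**Figure D1:**
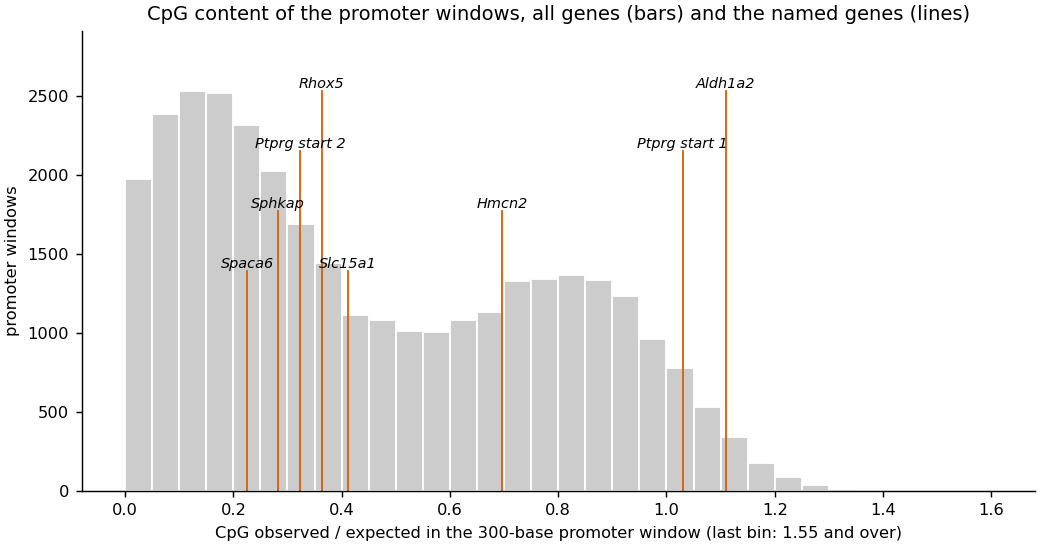
Ratio of observed to expected CpG in 300-base promoter windows (x axis, no unit) against the number of windows (y axis). Grey bars are all 32851 windows and orange lines the 8 windows of 7 named genes, which run from 0.226 (Spaca6) to 1.11 (Aldh1a2) across both humps of the distribution.

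Across clones, 30 of the 32 pairs of a gene and a clone had every clone library below every parental library. Of the 32 pairs, 15 were at the floor, and in 11 of these all 3 libraries were at 0. This contrast chose the genes, and the share of all tested genes separated in this way is not given here. Nothing is therefore read from these counts. *Sphkap* and *Ptprg* were at 0 in all 12 clone libraries, whereas *Spaca6* stayed measurable in all 12. The 2 exceptions were *Colq*, which was higher in E6.1 than in parental cells, and *Rhox5*, whose E7.1 libraries overlapped the parental ones. *Rhox5* was also not a low gene, since its parental level exceeded that of 66.3% of the tested genes, while the other 7 lay between percentiles 12.1 and 27.3. The plot of counts by library shows every value.

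**Figure D2:**
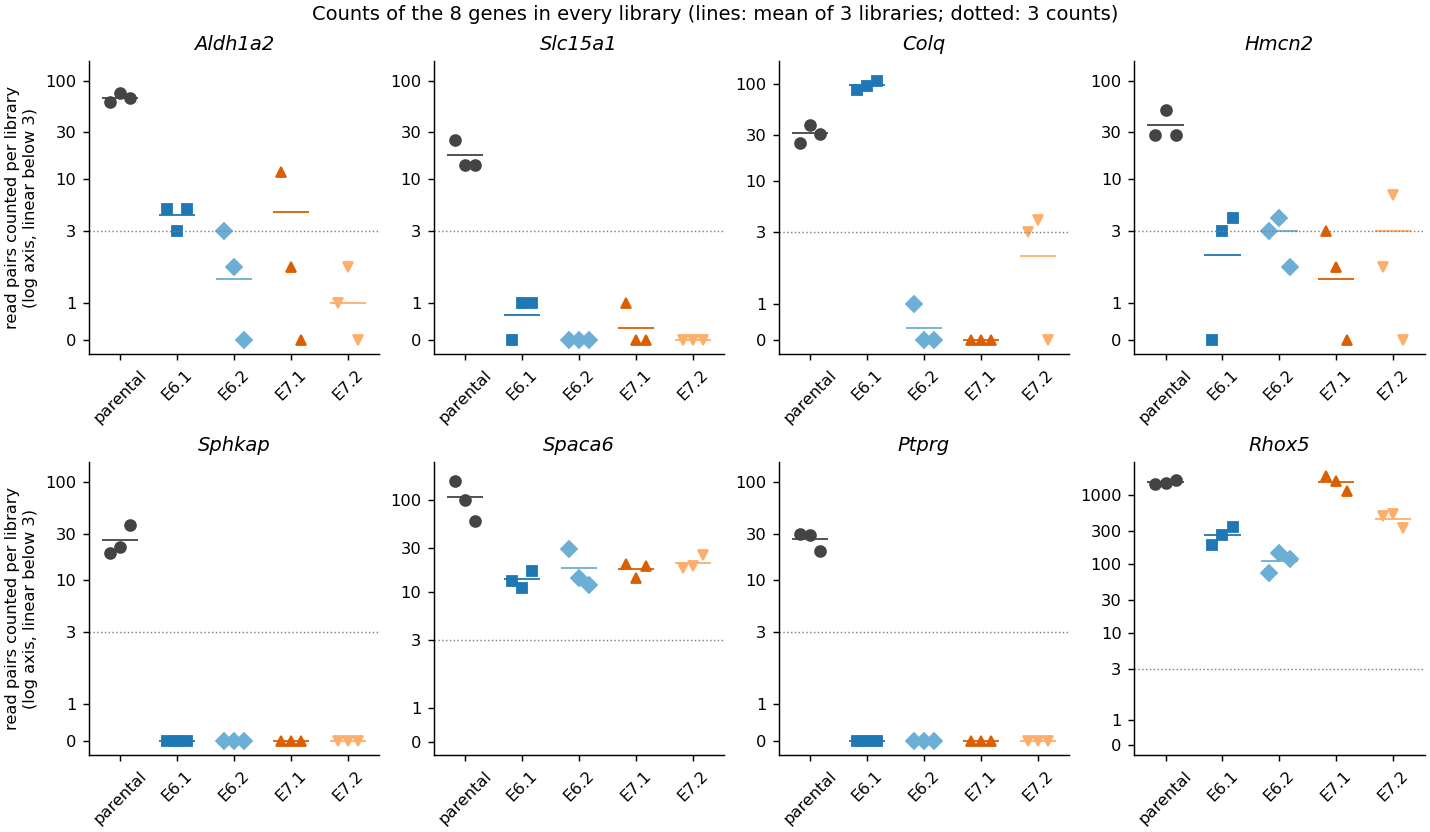
Read pairs counted per library (y axis, log scale, linear below 3) for each of the 8 genes in parental cells and the 4 clones (x axis). Points are single libraries, horizontal lines the mean of 3 and the dotted line 3 counts. Sphkap and Ptprg sit at 0 in every clone library, Colq stands at 88 to 108 in E6.1, and Rhox5 in E7.1 lies at 1163 to 1888, around the parental 1454 to 1642.

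The edgeR calls that chose the genes were uneven between clones. In E6.1, 2 of the 8 were called lower, against a background of 0.266% of all tested genes called lower and 0.0575% called higher. E6.2 had 7 of 8 called lower (background 1.01% lower, 0.165% higher). E7.1 also had 7 of 8 (0.82% lower, 0.396% higher), and E7.2 had 4 of 8 (0.209% lower, 0.0863% higher). No pair was called higher in this fit. Since these calls selected the genes, nothing is read from the counts. Leaving out 1 parental library kept 8 to 13 of the 20 calls, and leaving out the third libraries of E6.2 and E7.2 together gave 7, 6, 7 and 7 called lower in clone order. Without those libraries the fitted log2 fold changes of the 8 in E6.2 and E7.2 moved by between -0.24 and 0.62, the most for *Aldh1a2* in E6.2 (-5.03 with them, -4.41 without), and *Foxp1* was at -0.36 in E6.2 and -1.83 in E7.2. All 8 passed the filter on low counts, but *Slc15a1*, *Hmcn2*, *Sphkap* and *Ptprg* exceeded its cutoff of 0.281 CPM in parental libraries only. The median log2 fold change of the 8 was -3.86, -5.48, -4.86 and -4.84 in clone order, beside medians of 0.00, 0.06, -0.02 and 0.00 over all tested genes. With each all-0 gene set at its bound in place of the fitted value these medians were -3.86, -4.23, -4.58 and -3.94. The pair just inside the floor was *Aldh1a2* in E7.2, with 3 counts in total, and those just outside were *Aldh1a2* in E6.2 and *Hmcn2* in E7.1, with 5 each.

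Per kilobase of exon, the parental levels ran from *Rhox5* at 58.2 CPM per kb through *Aldh1a2* (0.858), *Spaca6* (0.45), *Colq* (0.234) and *Slc15a1* (0.164) to *Sphkap* (0.0777), *Ptprg* (0.0691) and *Hmcn2* (0.0627). The libraries of the last 3 overlapped in this measure, as did those of *Spaca6* and *Colq* and of *Colq* and *Slc15a1*, so these neighbours are not ordered beyond their spread. Ratios below are parental over clone on pooled normalized counts with an exact 95% counting interval, which covers counting error only. Where all 3 clone libraries were at 0, the ratio is a lower bound against 3 counts over the group, a level of 0.0273 to 0.0327 CPM. These bounds take the parental count as it stands, without its counting error, so they are not comparable with the lower ends of the intervals.

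*Aldh1a2* (ENSMUSG00000013584, chromosome 9, 71215789 to 71296243, plus strand, GRCm38) had 62, 75 and 67 counts in the parental libraries, or 1.94 ± 0.0643 CPM (SD, n = 3). It had 5, 3 and 5 counts in E6.1, and 3, 2 and 0 in E6.2. E7.1 gave 12, 2 and 0 and E7.2 gave 1, 2 and 0. Every clone library thus lay far below the lowest parental one, and a single E7.1 library held most of that clone's reads (fitted log2 fold change -3.91, or -5.98 without it). Parental cells were 15.3-fold higher than E6.1 (interval 8.73 to 29.2), 35.7-fold higher than E6.2 (15 to 111), 15.3-fold higher than E7.1 (8.9 to 28.5) and 69.1-fold higher than E7.2 (23.3 to 338). These intervals overlap one another, so the clones are not ordered by them. The parental libraries varied by 3.31%, the lowest observed spread of the 8 and less than the 12.1% that counting alone gives. A spread under counting error in 3 libraries does not show that *Aldh1a2* was steadier than the others. It was the gene with 50 CpG in its promoter window, and the third libraries of E6.2 and E7.2 were both at 0.

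*Slc15a1* (ENSMUSG00000025557, chromosome 14, 121459621 to 121505254, minus strand) had 25, 14 and 14 counts in parental cells (0.512 ± 0.212 CPM, SD, n = 3), the lowest parental level of the 8 before length is taken into account. It had 0, 1 and 1 counts in E6.1, 1, 0 and 0 in E7.1, and 0 in every library of E6.2 and E7.2. All 4 clones were at the floor and no library overlapped the parental ones. Parental cells were 25.8-fold higher than E6.1 (6.8 to 218) and 55.6-fold higher than E7.1 (9.56 to 2240; the only count there was in replicate 1), at least 15.5-fold higher than E6.2 and at least 17.9-fold higher than E7.2. The wide intervals reflect 1 or 2 counts in a clone.

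*Colq* (ENSMUSG00000057606, chromosome 14, 31523082 to 31591343, minus strand) split the clones. It had 25, 38 and 31 counts in parental cells (0.891 ± 0.13 CPM, SD, n = 3) and 88, 95 and 108 in E6.1 (2.87 ± 0.213 CPM). It fell to 1, 0 and 0 counts in E6.2, to 0 in all 3 E7.1 libraries, and to 3, 4 and 0 in E7.2. The E6.1 libraries all lay above the parental ones and the other 9 clone libraries all below them. The pooled level in E6.1 was 3.18 times the parental one (2.51 to 4.06), a fitted log2 fold change of 1.68 (standard error 0.51) that was not called here but was called higher in 4 of 13 alternative settings. Parental cells were 82.2-fold higher than E6.2 (14.4 to 3280), at least 32.9-fold higher than E7.1 and 13.6-fold higher than E7.2 (6.37 to 34.9). E6.1 and E6.2 are both exon 6 mutants, so the split ran within clones of 1 target exon. Of the gene model, 199 exonic bases (5.23%) are shared with *Hacl1* on the same strand, and read pairs there were not counted. *Hacl1*, an enzyme of peroxisomal alpha-oxidation, was at 14.4 ± 3.02 CPM in parental cells and at 15 ± 2.07, 11.5 ± 0.665, 15.8 ± 5.29 and 15.4 ± 3.88 CPM in the clones.

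*Hmcn2* (ENSMUSG00000055632, chromosome 2, 31314415 to 31460738, plus strand) had 28, 51 and 28 counts in parental cells (1.01 ± 0.307 CPM, SD, n = 3). The clones had 0, 3 and 4 counts in E6.1, 3, 4 and 2 in E6.2, 3, 2 and 0 in E7.1, and 2, 7 and 0 in E7.2. A residue of reads thus remained in each clone, and none reached the parental range. The ratios were 14.9 (6.98 to 37.9), 10.4 (5.28 to 23.4), 22.5 (9.33 to 70.6) and 12.1 (6.13 to 27.1) in the same order. In E7.2 most counts came from 1 library, and the fitted log2 fold change went from -3.55 to -4.98 without replicate 2, as it did in E7.1 from -4.38 to -5.04 without replicate 1. It was called in E7.1 alone, although its levels in the 4 clones had overlapping intervals. *Hmcn2* has the longest exon model of the 8, at 16073 bases.

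*Sphkap* (ENSMUSG00000026163, chromosome 1, 83254139 to 83408200, minus strand) had 19, 22 and 37 counts in parental cells (0.746 ± 0.287 CPM, SD, n = 3) and 0 in all 12 clone libraries. *Ptprg* (ENSMUSG00000021745, chromosome 14, 11553532 to 12242041, plus strand) had 30, 29 and 20 counts in parental cells (0.755 ± 0.163 CPM) and likewise 0 in all 12. For both genes the parental and clone libraries were fully separate. Parental cells were at least 25.3-fold higher than E6.1, 22.7-fold than E6.2, 27.3-fold than E7.1 and 26.4-fold than E7.2 for *Sphkap*. For *Ptprg* the bounds were 25.6, 23.0, 27.6 and 26.8. Both genes were called in E6.2 and E7.1 and not in E6.1 and E7.2, although their counts in the 4 clones are the same. These 4 calls were lost with a replicate block. The calls of these genes therefore do not separate the clones. The adjustment for multiple tests ran within each clone, where between 29 genes (E7.2) and 140 genes (E6.2) were called lower. The first promoter window of *Ptprg* has 36 CpG, and its second window and that of *Sphkap* have 7 each, while the start used in A20 cells was not measured.

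*Spaca6* (ENSMUSG00000080316, chromosome 17, 17830719 to 17843009, plus strand) was lower but not lost. Its parental libraries had 162, 101 and 59 counts (3.1 ± 1.63 CPM, SD, n = 3), a spread of 52.6% where counting alone gives 9.65%. It had 13, 11 and 17 counts in E6.1, 29, 14 and 12 in E6.2, 20, 14 and 19 in E7.1, and 18, 19 and 25 in E7.2. No clone library reached the lowest parental one, and no clone was near the floor. The ratios were 7.64 (5.51 to 10.9), 5.12 (3.84 to 6.95), 6.37 (4.76 to 8.69) and 5.28 (4.01 to 7.04), a narrow range beside that of the parental libraries themselves, whose highest was 2.85 times their lowest.

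The *Spaca6* model overlaps *Mir125a*, with 56 exonic bases in common, and a microRNA cluster lies at its start. The mature forms are shown because their hairpins sit beside or inside the counted gene, which in these libraries was lower in all 4 clones. They are RefSeq sequences on GRCm38.p6, plus strand, with the seed (bases 2 to 8) in capitals. *Mir125a* had 0 counts in every library, and mature microRNAs were not measured. The first lies 504 bases before the model (chr17:17830194-17830215), the second 332 bases before it (chr17:17830366-17830387) and the third inside it (chr17:17830817-17830840). The 3 seeds differ from one another.
mmu-miR-99b-5p: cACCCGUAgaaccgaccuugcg
mmu-let-7e-5p: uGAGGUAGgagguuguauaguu
mmu-miR-125a-5p: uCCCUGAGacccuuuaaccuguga

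*Rhox5* (ENSMUSG00000095180, chromosome X, 37804842 to 37808876, plus strand) was the abundant gene of the 8, with 1454, 1495 and 1642 counts in parental cells (43.9 ± 3.95 CPM, SD, n = 3). It had 190, 265 and 347 counts in E6.1 (7.79 ± 1.53 CPM), 73, 145 and 118 in E6.2 (3.6 ± 0.757 CPM) and 499, 529 and 330 in E7.2 (12.6 ± 1.82 CPM). E7.1 had 1888, 1593 and 1163 counts (42.0 ± 8.01 CPM). Those E7.1 libraries straddled the parental range in CPM, with 1 above it, 1 within it and 1 below, while the other 9 clone libraries lay below it. Parental cells were 5.57-fold higher than E6.1 (5.17 to 6.01), 12-fold higher than E6.2 (10.7 to 13.4), 3.43-fold higher than E7.2 (3.23 to 3.65) and 1.04-fold higher than E7.1 (0.996 to 1.08). The levels ran in the order parental, E7.1, E7.2, E6.1 and E6.2. Parental cells and E7.1 did not differ beyond their spread, and the libraries of each later line in that order did not overlap those of the one before. No clone was near the floor. *Rhox5* thus kept reads in every clone, and its levels in the 2 exon 7 clones did not overlap. Of the 13 other Rhox family genes listed, none passed the filter, and 12 were at 0 in every library.

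**Figure D3:**
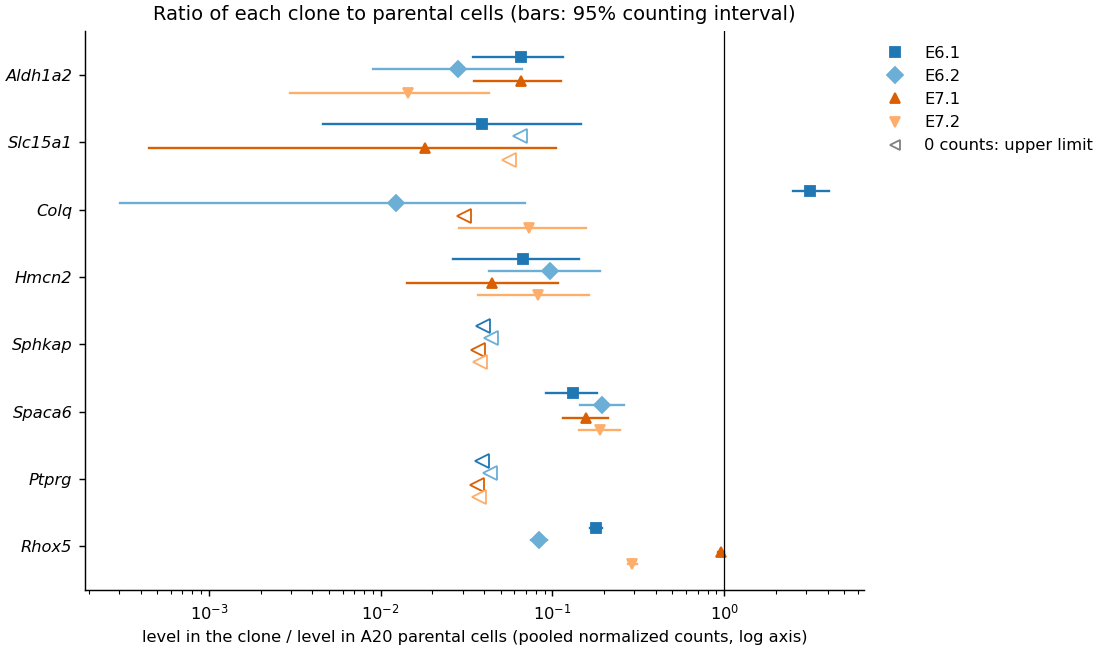
Level in each clone divided by the level in parental cells (x axis, log scale, pooled normalized counts) for the 8 genes (y axis). Filled symbols are ratios with bars for the 95% counting interval, and open triangles are upper limits where a clone had 0 counts. Most symbols lie between 0.0122 and 0.195, with Colq in E6.1 at 3.18 and Rhox5 in E7.1 at 0.964.

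Over the 15 libraries, most of the 8 genes followed one another, with parental and clone libraries standing apart. As a description, Pearson's r of log2 CPM was 0.98 between *Slc15a1* and *Ptprg* and between *Sphkap* and *Ptprg*. *Sphkap* and *Ptprg* were at 0 in all 12 clone libraries and *Slc15a1* at no more than 1 count. These r values thus set the parental libraries against clones at the floor, and correlation within lines is not given here. *Colq* gave 0.04 to 0.53 and *Rhox5* 0.04 to 0.58 with the others. The points share their libraries and depth, and the genes were chosen for this contrast, so no test applies. Among the other genes tested, *Meioc* was one of the 2 most alike for *Aldh1a2* (r = 0.951), *Slc15a1* (0.936), *Hmcn2* (0.924) and *Sphkap* (0.958), and *Iglv2* was one of the 2 for *Ptprg* (0.961). *Meioc*, a meiosis gene, was at 3.88 ± 0.532 CPM in parental cells and at 0.147 to 0.312 CPM in the clones. *Spaca6* was most like *Zfp979* (0.967) and *Iglv2* (0.936), *Colq* like *Lncenc1* (0.907) and *Cd80* (0.884), and *Rhox5* like *Lrrfip1* (0.911) and *Rp2* (0.903). *Cd80*, a co-stimulatory ligand, was at 1.19 ± 0.0739 CPM in parental cells, 2.61 ± 0.161 in E6.1 and at most 0.523 in the other clones. *Iglv2* has close paralogs and its counts are uncertain.

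To see whether the loss extended to nearby genes, the 5 nearest tested genes on each side were taken for each of the 8, 80 in all. They lay up to 3540 kb away. The closest was 182 kb from *Aldh1a2*, 206 kb from *Spaca6*, 353 kb from *Sphkap* and 372 kb from *Rhox5*, so nearer sequence was not covered there. Their clone against parental values did not enter the choice of the 8. Of their 320 log2 fold changes, 298 lay within 1 of 0, and their medians were -0.06, -0.03, -0.14 and -0.10 in clone order. By edgeR's quasi-likelihood test 0 were called in E6.1 and E7.2, and 1 of the 80 (1.25%) was called lower in each of E6.2 and E7.1, close to the background given above. At an unadjusted p under 0.05, 6, 6, 12 and 14 were lower and 2, 8, 4 and 3 higher in clone order. Of 80 genes these are 7.5%, 7.5%, 15% and 17.5% lower, beside 3.84%, 6.79%, 10% and 7.34% of all tested genes, and 2.5%, 10%, 5% and 3.75% higher, beside 2.87%, 6.26%, 9.94% and 5.98%. DESeq2 called 1, 2, 3 and 1 lower and 0, 0, 1 and 0 higher, and its share over all tested genes is not given here. *Adam10*, a membrane protease that lies 436 kb from *Aldh1a2*, was at 340 ± 21.8 CPM in parental cells and 216 ± 35.5 CPM in E6.2 (log2 fold change -0.66, standard error 0.14, adjusted p = 0.0293, SD over n = 3). *Mbnl2*, a splicing factor 1030 kb from *Slc15a1*, was at 102 ± 29.1 CPM in parental cells and 38.0 ± 9.25 CPM in E7.1 (log2 fold change -1.42, standard error 0.30, adjusted p = 0.0399). Neither call held throughout, since *Adam10* was called in 6 and *Mbnl2* in 8 of 13 alternative settings, with adjusted p values up to 0.467 and 0.22. Near *Colq* and near *Rhox5*, all 40 values of each lay within 1 of 0. *Ass1*, 9.47 kb from *Hmcn2* and at 0.443 CPM in parental cells, had log2 fold changes of -0.89, -1.65, -1.01 and -0.28 in clone order. *Dock9*, 36.8 kb from *Slc15a1*, had -0.42, -0.22, 0.21 and -0.01. *3830406C13Rik*, 42.2 kb from *Ptprg*, had values between -0.21 and 0.1. None of these genes was called in any clone. *Rpl15-ps2*, a pseudogene beside *Aldh1a2* with near-identical copies elsewhere, had log2 fold changes of -4.49 to -3.96, was not called, and has uncertain counts.

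**Figure D4:**
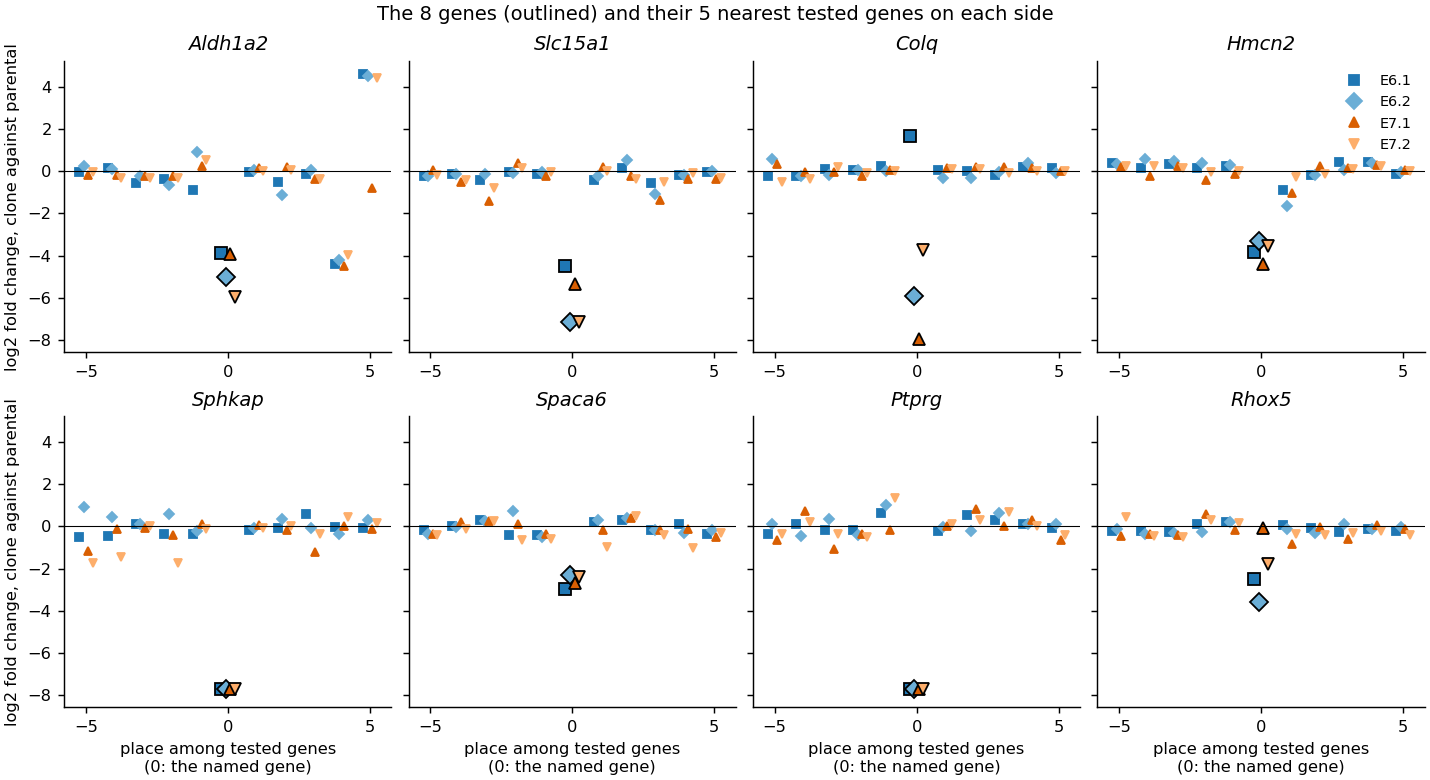
Log2 fold change of each clone against parental cells (y axis) for the 8 genes (outlined, at place 0) and the 5 nearest tested genes on each side (x axis, place along the chromosome). Of the 320 neighbour values, 298 lie within 1 of 0, while the outlined symbols reach -7.94.

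*Slc15a1*, *Colq* and *Ptprg*, 3 of the 8, are on chromosome 14, at 3 separate places. The median log2 fold change of the 476 tested genes of that chromosome was -0.03, 0.01, -0.09 and -0.06 in clone order, close to the medians over all tested genes given above.

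Genes related to the 8 by function or by gene family, and genes of DNA methylation, were then counted from 9 lists. These held 131 genes in all, of which 59 passed the filter. By edgeR's quasi-likelihood test 0 were called higher in any clone and 0 lower in E6.1 and E7.2, and 1 of 59 (1.69%) was called lower in each of E6.2 and E7.1. At an unadjusted p under 0.05 in that test, 3, 8, 5 and 2 of the 59 were lower and 1, 0, 8 and 3 higher in clone order. Of all tested genes, 3.84%, 6.79%, 10% and 7.34% were lower and 2.87%, 6.26%, 9.94% and 5.98% higher. The excess of lower over higher among the 59 in E6.2 was not tested. DESeq2 called 0, 1, 2 and 0 lower and 1, 0, 3 and 1 higher, and its share over all tested genes is not given here. The share called lower by edgeR at an adjusted p under 0.05 was near the background in E6.2 and E7.1.

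The gene called in both clones was *Bco1* of the retinoid list, which cleaves beta-carotene to retinaldehyde, the substrate of Aldh1a2. It was at 2.78, 3.84 and 4.05 CPM in parental cells, and at 0.236, 0.0907 and 0.18 CPM in E6.2. It was at 0, 0.179 and 0.0895 CPM in E7.1, below every parental library as in E6.2. In E6.1 and E7.2 all libraries were above the parental ones without passing the test, at 8.66, 7.29 and 7.93 CPM in E6.1 and 6.6, 7.25 and 8.18 CPM in E7.2. From edgeR the log2 fold change was -4.4 in E6.2 with an adjusted p of 0.000244, and -5.24 in E7.1 with an adjusted p of 0.000139. E6.1 gave 1.16 with an adjusted p of 0.457, and E7.2 gave 1.04 with an adjusted p of 0.297. Both calls held in 13 of 13 alternative settings. Without the third libraries of E6.2 and E7.2 the values were -4.46 in E6.2 and 0.98 in E7.2. *Aldh1a2* and *Bco1* were thus both low in E6.2 and E7.1, while in E6.1 and E7.2 *Aldh1a2* was low and *Bco1* was not.

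Of the 21 genes of the retinoid list 9 were tested, and *Bco1* was the only one called. In the same list 3 were at 0 throughout. The receptors *Rara*, *Rarb*, *Rxra* and *Rxrb* had log2 fold changes between -0.78 and 1.09. *Rdh10*, which makes retinaldehyde from retinol, was at 11.9 CPM in parental cells and 7.71 to 12 CPM in the clones. In the peptide transport list 3 of 7 genes were tested, and *Slc15a4*, the lysosomal relative of *Slc15a1*, was at 27.2 CPM in parental cells and 25.8 to 32.5 CPM in the clones. In the cholinesterase and endplate list 3 of 12 were tested and 5 were at 0 throughout. The basement membrane list had 4 of 15 tested, with *Nid1* in E6.2 its widest value (-2.43, not called). Of 18 genes of the protein kinase A list 16 were tested, with values between -1.09 and 0.56, and *Prkar1a*, a regulatory subunit, was at 308 CPM in parental cells and 287 to 304 CPM in the clones.

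The sperm-egg fusion list had 3 of 12 genes tested, *Izumo1*, *Dcst1* and *Tmem81*, with values between -1.04 and 0.75. Among the receptor-type tyrosine phosphatases 8 of 20 were tested, with values between -1.49 and 1.75, and *Ptprc*, the leukocyte antigen CD45, was at 669 CPM in parental cells and 545 to 725 CPM in the clones. All 13 genes of the DNA methylation list were tested and none was called in any clone. The maintenance methyltransferase *Dnmt1* was at 200 ± 43.4 CPM in parental cells and 225 ± 40.0, 142 ± 21.2, 290 ± 16.3 and 261 ± 145 CPM in clone order (SD, n = 3). Its cofactor *Uhrf1* was at 103 ± 37.3 against 103 ± 25.2, 47.7 ± 14.6, 192 ± 34.1 and 126 ± 92.8 CPM. The E7.2 libraries were far apart, with counts of 2985 to 13768 for *Dnmt1* and 604 to 6994 for *Uhrf1*. A p that misses the threshold does not show that these levels were equal. In the plot of the related lists the filled symbols are those of *Bco1*.

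**Figure D5:**
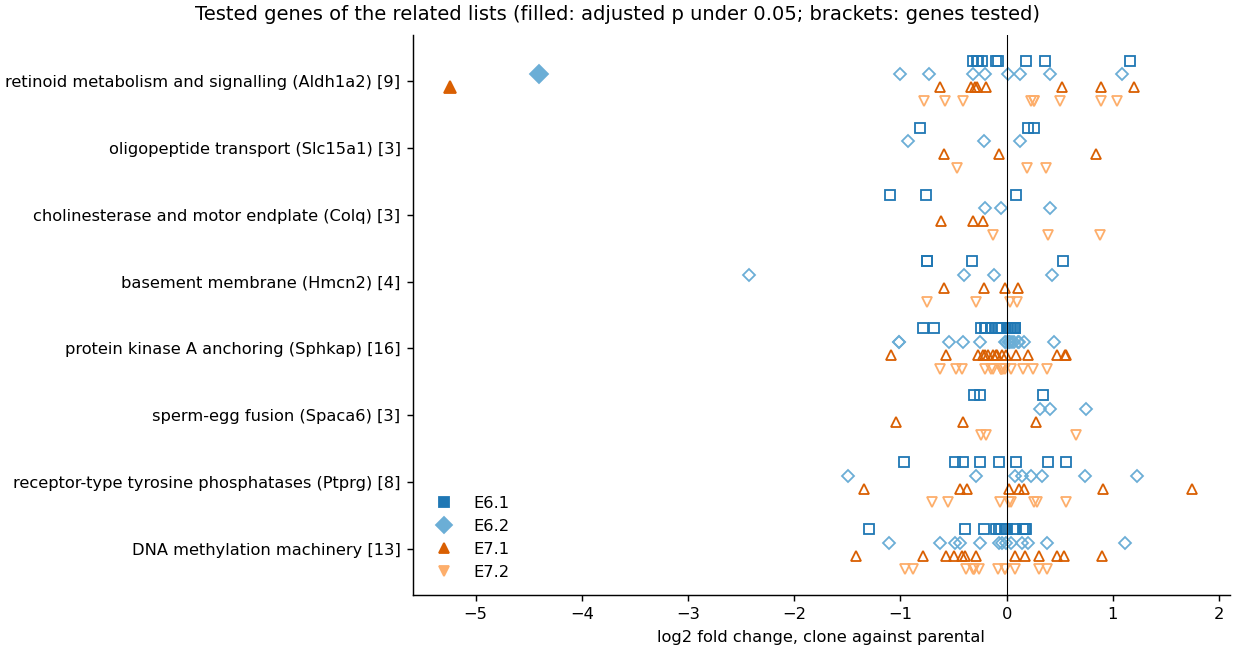
Log2 fold change of each clone against parental cells (x axis) for the 59 tested genes of the related lists (y axis, one row of symbols per clone within each list, with the number tested in brackets). Filled symbols mark an adjusted p under 0.05, which were Bco1 in E6.2 (-4.4) and in E7.1 (-5.24). The Rhox family list had no tested gene and is not drawn.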

How the data were processed

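RNA was sequenced from A20 parental cells and 4 *Foxp1* CRISPR clones, in 3 libraries per line. The authors deposited raw counts, 1 table per library, made by aligning reads with HISAT and counting read pairs per gene (featureCounts 1.5.0, GRCm38 annotation plus spike-ins). Strand was ignored in counting, and pairs at several places or on several genes were dropped, so shared exons and near-identical copies are undercounted. The treatment of duplicate reads is not given in the sources used here. Counts summed to 26328054 to 39181530 per library (median 35586010), and 92 spike-ins had 0 counts.

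The counts were analysed in R 4.3.3 with edgeR 4.0.16: filterByExpr (13904 genes kept), TMM normalization and glmQLFit with glmQLFTest at their defaults on all 15 libraries, with 1 factor, the line. P values were Benjamini-Hochberg adjusted over all tested genes within each clone, and calls were made below an adjusted p of 0.05. Log2 CPM for correlations used a prior count of 2. The fit was tested on simulated data. Libraries from separate passages of a line are the replicates, and the spread was estimated from all lines together. The p values therefore rest on the spread between passages within lines, pooled over the lines, and not on the spread between clones. No 2 libraries of a line agreed within sampling noise (chi-square per gene at least 35).

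The 8 genes and the related lists were chosen with earlier results of these data known. Genes named beside the 8 are *Foxp1*, the listed and neighbouring genes called in at least 1 clone, and the 2 genes most correlated with each of the 8. A few genes meeting this rule are not reported here. Some listed and neighbouring genes are also named with uncalled values, chosen after their values were seen. Alternatives were DESeq2's size factors, no filter on low counts, the DESeq2 1.42.0 Wald test, edgeR's likelihood ratio test, only the 6 libraries compared, a replicate block, the removal of each library in turn, and another definition of the floor. The removal of the third libraries of E6.2 and E7.2 together was added after seeing the data. Promoter and microRNA sequences are from RefSeq (GRCm38.p6).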

Additional observations from a re-analysis of the deposited data

Results flagged for a closer look

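*Colq* moved in opposite directions in different clones. In E6.1 its mean was 3.22 times the parental level, at 2.79, 3.11 and 2.7 CPM against 0.756, 1.01 and 0.903 CPM in parental cells. Every library of the other clones was below every parental library, at 0 to 0.107 CPM. *Bco1* also moved both ways. Its mean in E6.1 was 2.24 times the parental level and in E7.2 2.06 times, with all libraries above the parental ones, while in E6.2 and E7.1 it was 0.0475 and 0.0251 times the parental level, with all libraries below. The pair differ in E7.2, where *Colq* was low and *Bco1* was not. The difference between clones was not tested for either gene.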

How the results depend on the processing

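The 32 log2 fold changes of the 8 genes in the 4 clones kept their direction in every alternative, except that *Rhox5* in E7.1 (-0.06) was at 0.00 without parental replicate 3 and at 0.06 without E7.1 replicate 3 (lowest value -0.22, without E7.1 replicate 1). Their calls changed more often. Of 20 calls, DESeq2's size factors kept 20 and added 0. *Rhox5* in every clone but E7.1 and *Colq* in E6.2 and E7.1 were called in all 13 alternatives of each clone. *Colq* in E6.1 was called higher in 4, which were the DESeq2 Wald test, the likelihood ratio test, only the 6 libraries, and the removal of 2 libraries together. Without E6.2 replicate 1, *Colq* in E6.2 went from -5.93 to -7.96, and *Spaca6* from -2.29 to -2.98. *Aldh1a2* in E6.2 (-5.03) was at -5.86 without replicate 1 and -4.43 without replicate 3 of that clone, and in E7.2 it went from -5.95 to -6.76 without replicate 2. *Slc15a1* in E7.1 went from -5.34 to -7.14 without replicate 1. Leaving out a library mostly lost calls, with 13, 8 and 10 of the 20 kept without parental replicates 1, 2 and 3. Counts of the 8 called lower ranged from 1 to 2 in E6.1, 3 to 5 in E6.2, 1 to 7 in E7.1 and 1 to 2 in E7.2 when 1 library was left out. With each library, in place of the total, at 3 counts or fewer, 3, 5, 5 and 4 genes were at the floor in clone order (E6.1, E6.2, then E7.1 and E7.2).

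Other settings moved the count of the 8 called lower as follows. The DESeq2 Wald test gave 5 in E6.1 and 7 in E7.2, and 3 in E7.1, where it gave 4 of the 8 no adjusted p. The likelihood ratio test gave 7 in E6.1 and 8 in E7.2, no filter 5 in E6.1 and 7 in E7.2, and only the 6 libraries 7 in E6.1, 2 in E6.2 and 2 in E7.2. Leaving out the libraries numbered 3 in both E6.2 and E7.2, chosen after seeing the data, gave 7 in E6.1 and 7 in E7.2. A replicate block gave 2 in E7.2 and 5 in both E6.2 and E7.1, where *Sphkap* and *Ptprg* were lost, and kept 14 of the 20 calls. Parental and clone libraries with the same replicate number deviated together weakly or not at all (r from -0.124 to 0.213, over 0.1 in 5 of 12 pairs). Of 15 libraries, 7 were most like one of their own number. Between clones, replicate 3 of E6.2 and replicate 3 of E7.2 deviated alike (r = 0.426). Whether the replicate number marks a shared batch was not tested. The block also called 0 neighbours lower in E6.2.

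For the neighbours, DESeq2 called 1, 2, 3 and 1 lower in clone order, with 1 higher in E7.1, and so did the likelihood ratio test. No filter called 1 lower in E6.1 and in E7.2 and 2 lower in E7.1, and only the 6 libraries 1 in E6.1 and 0 in E6.2. Without both of those libraries 11 were lower and 3 higher in E7.1, and 1 lower and 1 higher in E7.2. Leaving out 1 library gave 0 to 1 lower in E6.2, and 0 to 2 lower and 0 to 1 higher in E7.1. For the related lists, DESeq2 called 2 lower and 3 higher in E7.1, and 1 higher in both E6.1 and E7.2. The likelihood ratio test called 2 lower in E6.2 and 1 higher in each of E6.1, E7.1 and E7.2, and only the 6 libraries 1 higher in E6.1. Without both of those libraries 5 were lower and 8 higher in E7.1. Leaving out 1 library gave 1 to 2 lower in E6.2, 1 to 2 lower in E7.1 and 0 to 6 higher in E7.1, and otherwise 0. The share of all tested genes called in each of these settings is not given here. The counts of the 8, the neighbours and the lists therefore have no background to be read against. The cause of these changes was not tested. Depth limits 15 of the 32 values to at most 3 counts in a clone, where the size of the loss cannot be measured.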
